A study of Drosophila melanogaster with 2 samples.

Results

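Of the 3248 peaks of the zinc finger protein Wdn that lay on X, 2L, 2R, 3L, 3R or 4 in the dm6 genome, 348 had their summit in intergenic DNA, a share of 10.7% (95% exact binomial interval 9.67 to 11.8%). A peak was counted as intergenic when its summit lay more than 500 bp from every annotated transcript start and outside every annotated gene body, with transposon genes ignored. The choice used position alone and no measured value beyond a peak's presence in the list. The other peaks on these chromosomes were 1705 promoter peaks, with a summit within 500 bp of a start, 1076 intronic peaks and 119 exonic peaks. The whole list, made from both replicates, held 3254 peaks. The replicates' own lists gave 190 intergenic peaks of 1996 in replicate 1 (9.52%) and 165 of 1783 in replicate 2 (9.25%), a mean of 9.39% ± 0.187 (SD, n = 2).

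The peaks come from chromatin immunoprecipitation with sequencing (ChIP-seq) on whole Drosophila melanogaster embryos of 0 to 24 hours, from transgenic flies with a Wdn-eGFP fusion protein that was recovered with an anti-GFP antibody after sonication to a range of 200 to 800. There was 1 group of 2 biological replicates. A possible control named by the labels was not analysed here, and neither was an untagged strain. Whole embryos mix all cell types of the embryo over its whole development, and no expression was measured, so the cells in which a region was bound cannot be told. Wdn (Wings down) is a transcription factor with zinc fingers of the C2H2 type, a fold that reads short stretches of DNA. Intergenic DNA of the compact fly genome holds enhancers, silencers such as Polycomb response elements, insulators and ends of transcripts, as well as starts that no annotation lists. Binding there does not show which gene, if any, is controlled, so flanking genes are named below as landmarks.

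The strongest intergenic peaks show what kind of DNA the protein was recovered with. The 10 sequences below are the reference forward strand within 50 bp of the summit, for 10 of the strongest members by the authors' signal value, in descending order and each named by the gene with the nearest start. The members with the highest and the seventh highest signal, near CG13323 and CycB, are described further on and not shown here. The 3 last ones lie upstream of chinmo. Capitals mark letters of the 6 short motifs that were more frequent in intergenic peaks than in intergenic candidates, as described further on.
CG17896, chrX:493949-494049: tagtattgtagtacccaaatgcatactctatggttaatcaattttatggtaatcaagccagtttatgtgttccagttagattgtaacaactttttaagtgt
lncRNA:CR45643, chr3R:16222458-16222558: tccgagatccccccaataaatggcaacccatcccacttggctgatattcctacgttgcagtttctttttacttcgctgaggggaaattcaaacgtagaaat
foxo, chr3R:14053530-14053630: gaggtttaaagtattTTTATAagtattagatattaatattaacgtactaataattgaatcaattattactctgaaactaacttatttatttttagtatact
stck, chr3R:8355667-8355767: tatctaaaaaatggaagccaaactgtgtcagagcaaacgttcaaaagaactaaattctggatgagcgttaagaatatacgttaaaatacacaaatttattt
sp3, chr3R:21520312-21520412: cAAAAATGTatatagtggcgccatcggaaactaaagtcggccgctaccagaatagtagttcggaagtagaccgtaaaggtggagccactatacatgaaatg
His3.3B, chrX:9152380-9152480: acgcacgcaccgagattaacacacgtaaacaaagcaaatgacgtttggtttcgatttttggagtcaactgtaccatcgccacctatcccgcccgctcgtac
tRNA:Ile-TAT-1-2, chr3L:781301-781401: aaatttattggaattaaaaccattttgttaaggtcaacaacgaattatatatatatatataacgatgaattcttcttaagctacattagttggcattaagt
lncRNA:CR44603, chr2L:1632767-1632867: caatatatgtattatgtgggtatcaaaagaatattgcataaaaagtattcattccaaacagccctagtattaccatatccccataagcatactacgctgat
lncRNA:CR45695, chr2L:1638728-1638828: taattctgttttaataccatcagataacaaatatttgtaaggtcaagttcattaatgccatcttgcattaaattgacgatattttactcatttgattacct
lncRNA:CR45695, chr2L:1643394-1643494: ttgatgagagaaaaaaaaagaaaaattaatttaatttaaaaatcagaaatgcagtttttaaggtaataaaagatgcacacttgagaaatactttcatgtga
A and T made up 82.2% of the foxo window, 76.2% of that at tRNA:Ile-TAT-1-2 and 77.2% of that at the last chinmo summit, while the His3.3B window held 50.5%. 2 of the 10 windows, at foxo and sp3, held one of the 6 motifs.

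5 further members of high signal are shown because they hold those motifs, again in capitals on the forward strand.
lncRNA:CR44197, chr2L:13083774-13083874: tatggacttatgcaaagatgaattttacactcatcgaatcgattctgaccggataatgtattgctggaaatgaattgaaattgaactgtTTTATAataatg
lncRNA:CR45355, chr2L:16535902-16536002: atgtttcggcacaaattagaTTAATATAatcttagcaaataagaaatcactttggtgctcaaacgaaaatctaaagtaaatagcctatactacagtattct
foxo, chr3R:14052322-14052422: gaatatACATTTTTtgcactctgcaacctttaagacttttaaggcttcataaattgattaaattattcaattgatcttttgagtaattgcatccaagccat
alpha-Est9, chr3R:7506426-7506526: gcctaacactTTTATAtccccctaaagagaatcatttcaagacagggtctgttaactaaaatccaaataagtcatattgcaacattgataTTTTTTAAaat
Cpr76Ba, chr3L:19516693-19516793: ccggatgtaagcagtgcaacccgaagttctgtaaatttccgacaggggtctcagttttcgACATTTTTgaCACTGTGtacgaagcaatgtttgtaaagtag
At alpha-Est9 and Cpr76Ba the windows held 2 different motifs each. At lncRNA:CR45355, alpha-Est9 and the second foxo summit the capitals include the reverse complements of TATATTAA, TTAAAAAA and AAAAATGT, and every TATA box shown is a reverse complement too. Both motifs at Cpr76Ba, AAAAATGT and CACAGTG, are reverse complements as well.

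The strongest intergenic peak lay in the Polycomb gene region of chromosome 2R, in the space between Su(z)2 and CG13323, at 13035340. Su(z)2 encodes a relative of Posterior sex combs (Psc), a core part of a Polycomb repressive complex, and lies next to Psc. This peak had a signal value of 668.4 in the main list, and its overlapping ranked peaks had 332.0 in replicate 1 and 331.2 in replicate 2. It had rank 24 in the whole list and lay 27429 bp beyond the end of Su(z)2 and 11916 bp from the nearest start, that of CG13323. 2 further members lay in the same space, with signals of 60.99 and 47.21, and both were far lower in replicate 2 (10.03 and 11.04) than in replicate 1 (43.5 and 39.1). On the other side of the gene pair, between CG13321 and Psc, members had 139.1 and 79.1. Between Psc and Su(z)2 a member near CG33798 had 90.0, and the promoter peak at lncRNA:CR44339, which is no member, had 597.2.

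The member with the second highest signal sat in the 1118 bp space between the diverging genes CG17896 and CG17778 on X, 504 bp from the CG17896 start, with a signal of 553.3 (263.1 in replicate 1 and 286.7 in replicate 2). Its distance is also the smallest of all members. A peak 887 bp upstream of lncRNA:CR45643 on 3R had 500.8 (279.8 and 227.6). On 3R as well, a peak 3365 bp upstream of foxo, the forkhead factor that acts at the end of the insulin pathway, had 376.0 (204.4 and 168.0). A second member 4573 bp upstream of foxo had 209.7 (100.1 and 111.9).

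Other strong members lay at genes of varied functions. The peak 1261 bp upstream of stck, which encodes a LIM-domain adaptor of integrin adhesion, had 371.8, with 139.7 in replicate 1 and 234.1 in replicate 2. Near sp3, 566 bp upstream of its start, the signal was 352.0, with 133.9 and 216.1. The peak between the 3′ ends of blw, for a subunit of ATP synthase, and CycB, for the mitotic cyclin B, had 345.6, with 190.7 and 147.4. Between the ends of Bap111, a subunit of the Brahma chromatin remodelling complex, and His3.3B, a gene for the replacement histone H3.3, the signal was 323.3, and here the replicates lay farthest apart among the 15 strongest, with 223.1 and 97.97. A peak 10988 bp from the start of tRNA:Ile-TAT-1-2 on 3L had 315.3 (140.9 and 168.4).

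The other 6 of the 15 strongest were 3 peaks upstream of chinmo and peaks at tRNA:Phe-GAA-1-7 (244.3), lncRNA:CR44197 (238.9) and jp (236.6), a gene for a junctophilin, which links the plasma membrane to the endoplasmic reticulum. All 15 strongest overlapped a peak of both replicates' own lists and of the conservative list. They spanned 117 to 213 bp, while 315 of the 348 members had the width of 304 bp that is most frequent in the list.

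**Figure D1:**
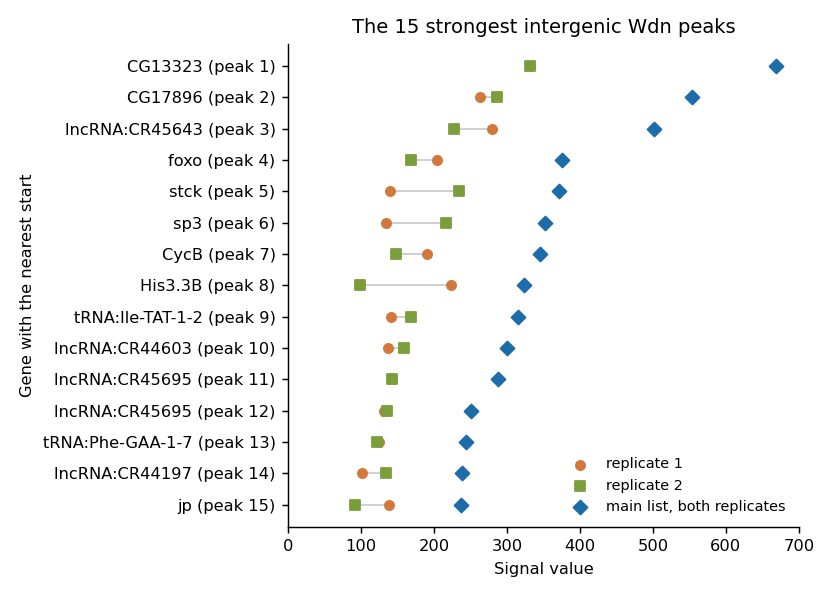
Signal values of the 15 strongest intergenic peaks, in the main list (diamonds) and in the overlapping ranked peaks of replicate 1 (circles) and replicate 2 (squares), with 1 row per peak named by the gene with the nearest start. The main-list value lay between 236.6 and 668.4, and the replicates differed most at His3.3B.

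Across all members the signal ran from 2.04 to 668.4, with a median of 70.05 and quartiles of 56.4 and 99.0. Promoter peaks had a median of 82.5 and intronic peaks 73.4. The authors' signal in the main list was close to the sum of the replicates' values, with a median ratio of 0.997 and 298 of 343 members within 10% of it. 11 members had a signal under 20, from 16.6 down to 2.04, and the next member had 39.1. All 11 overlapped a stronger peak of the main list, and 26 members (7.47%) overlapped any other peak of the list, against 5.46% of promoter peaks and 6.60% of intronic peaks. Such neighbours are not independent regions, and a replicate's value can be that of 1 ranked peak for both.

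A smaller share of intergenic than of promoter peaks recurred in the own lists of both replicates. 104 of the 348 (29.9%, 95% exact interval 25.1 to 35.0%) overlapped a peak of both replicates' own lists, against 44.3% of promoter peaks and 35.8% of intronic peaks. Over the whole list the share was 39.2%. The odds ratio was 0.535 against promoter peaks (adjusted p = 3.02e-06) and 0.765 against intronic peaks (adjusted p = 0.0533), by two-sided Fisher's exact tests with Benjamini-Hochberg adjustment over 6 tests. A further 73 members were in the list of replicate 1 alone, 53 in that of replicate 2 alone, and 118 (33.9%) in neither. Members found in both lists had a median signal of 128.8, those of replicate 1 alone 71.7, those of replicate 2 alone 69.3 and those in neither 54.7.

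The conservative list held 241 members (69.3%), against 79.65% of promoter peaks and 77.4% of intronic peaks, with 76.7% over the whole list. Both differences passed the same Fisher's exact tests, with an odds ratio of 0.576 (adjusted p = 7.40e-05) against promoter peaks and 0.657 (adjusted p = 0.00390) against intronic peaks. Among the strongest 500 peaks of the list were 37 members (10.6%), against 19.65% of promoter peaks and 11.25% of intronic peaks, with 15.4% over the whole list. The odds ratio was 0.487 against promoter peaks (adjusted p = 7.40e-05) and 0.939 against intronic peaks (adjusted p = 0.844) by the same exact tests. Intergenic peaks were thus less often strong, and less often in both own lists, than promoter peaks, and neither difference passed the test against intronic peaks.

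These p-values are over peaks, which are not replicates. At a stricter global irreproducible discovery rate (IDR) of 0.001 the differences from promoter peaks no longer passed, with odds ratios of 0.700 for both own lists (adjusted p = 0.138), 0.647 for the conservative list (adjusted p = 0.424) and 0.640 for the strongest peaks (adjusted p = 0.0928), and neither did that from intronic peaks for the conservative list, with 0.278 (adjusted p = 0.0928, Fisher's exact tests). Without replicate 1, in the list of replicate 2 alone, the conservative share gave 0.627 against promoter peaks (adjusted p = 0.0671) and 0.540 against intronic peaks (adjusted p = 0.0643), and without replicate 2 it gave 0.705 against intronic peaks (adjusted p = 0.103), by the same Fisher's exact tests.

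In 343 members both replicates had an overlapping ranked peak, listed or not. Their medians were 38.5 in replicate 1 and 35.1 in replicate 2, and replicate 1 was the higher in 197. The values lay within 2-fold of each other in 283 members and over 4-fold apart in 6. Across these regions Spearman's rho was 0.446 and Pearson's r of the log2 signal was 0.574, against 0.663 and 0.765 over 1665 promoter peaks and 0.583 and 0.714 over 1058 intronic peaks. These correlations describe regions that share the same 2 libraries, and the lists were themselves chosen by the agreement of ranks. 2 members had no ranked peak in replicate 1 and 3 had none in replicate 2.

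**Figure D2:**
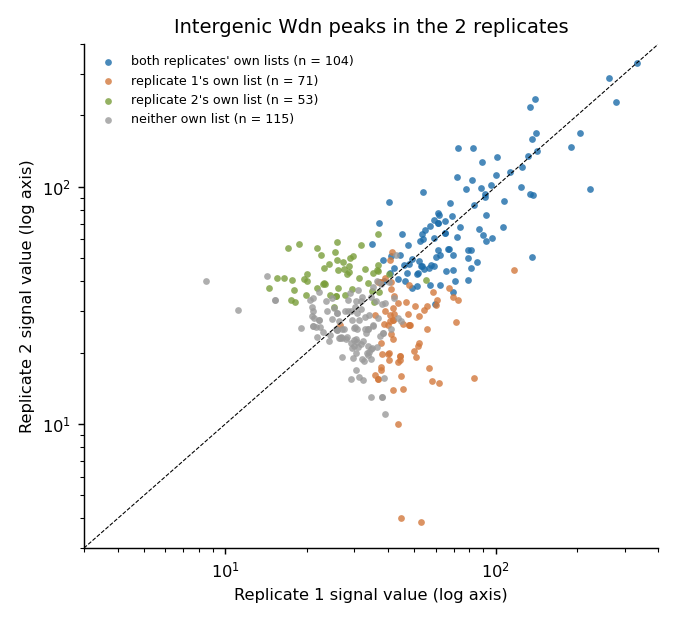
Signal values of the intergenic peaks in the ranked peak of replicate 1 (x axis) and of replicate 2 (y axis), both on log axes, with colours for membership in the replicates' own lists and a dashed line at equal values. Members in both own lists fill the upper right, with a median of 128.8 in the main list, and those in neither the lower left, with a median of 54.7.

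Candidates were the ranked peaks that did not reach the main list, and they show where intergenic DNA could have been listed. Of all ranked summits on the 6 chromosomes 2.49% were listed. The share was 1.23% for intergenic summits, against 7.94% for promoter, 2.23% for intronic and 0.368% for exonic summits. Since a place in the list chose the members, these shares are a description.

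Within intergenic DNA, the listed summits lay closer to transcript starts than the 27950 intergenic candidates. The median distance was 2274 bp for members (504 to 33945 bp) and 4313 bp for candidates. 79 members (22.7%) had a start within 1000 bp, against 9.15% of candidates, an odds ratio of 2.92 (adjusted p = 1.915e-13, Fisher's exact test). 158 members (45.4%) had one within 2000 bp, against 24.9%, an odds ratio of 2.505 (adjusted p = 1.11e-15, two-sided Fisher's exact tests, Benjamini-Hochberg over 6 tests). The listed share was 2.996% at 501 to 1000 bp (79 of 2637), 1.76% at 1001 to 2000 bp, 1.225% at 2001 to 5000 bp, 0.838% at 5001 to 10000 bp and 0.510% beyond that (32 of 6281).

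The signal of the members varied little over the same distances. Median signals were 71.7, 69.35, 70.3, 64.1 and 62.7 in order of distance, and the share in both own lists was 32.9, 30.4, 30.5, 26.4 and 25.0%, with wide intervals in each (11.5 to 43.4% in the last). 220 members (63.2%) lay upstream of the gene with the nearest start, against 58.5% of candidates. For 241 members that gene was protein-coding, for 97 a non-coding RNA gene and for 8 a tRNA gene. The space between flanking genes had a median of 8363 bp for members and 15320 bp for candidates.

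**Figure D3:**
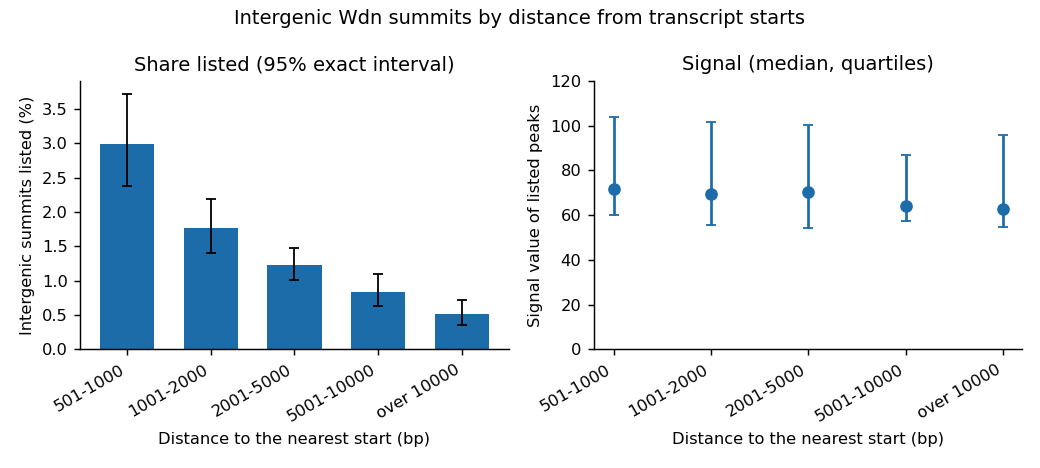
Left, the percentage of ranked intergenic summits that were in the main list, by distance to the nearest annotated start, with 95% exact binomial intervals. Right, the median signal of the listed peaks with quartiles. The listed share was 2.996% in the nearest bin and 0.510% in the farthest, while the medians lay between 62.7 and 71.7.

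The orientation of the flanking genes did not differ beyond the test. Diverging genes flanked 96 members (27.6%, against 23.8% of candidates, adjusted p = 0.150), tandem genes 173 (49.7%, against 50.4%, adjusted p = 0.829) and converging genes 79 (22.7%, against 24.9%, adjusted p = 0.459), by Fisher's exact tests. With promoters of 250 bp in place of 500, diverging genes (odds ratio 1.35, adjusted p = 0.00728) and converging genes (odds ratio 0.691, adjusted p = 0.00503) passed the same exact test. 3 members (0.862%) lay in an annotated transposable element copy, against 2.68% of candidates (odds ratio 0.316, adjusted p = 0.0574, Fisher's exact test). In the list of replicate 2 alone, without replicate 1, no member did (odds ratio 0, adjusted p = 0.0319, Fisher's exact test).

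The 3 members nearest to the limit of 500 bp were those at CG17896 (504 bp), stv (508 bp, signal 90.9) and CG10479 (510 bp, signal 133.1). Just inside the limit, and so among the promoter peaks, were summits at Poxm (490 bp, signal 74.3), CG15740 (483 bp, signal 49.2) and SsRbeta (477 bp, signal 75.2). At the other end, 2 members lay 33945 and 26265 bp from the start of vvl, which encodes a POU-domain factor of trachea and neurons, with signals of 73.9 and 93.8. Members between NijA and CG43245 lay 33154 and 31928 bp from the nearest start, with 83.4 and 91.5, and the fifth farthest was the 47.21 member beyond Su(z)2. All but that one were in the conservative list.

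Chromosome arm 3L held 104 members (29.9%, 25.1 to 35.0%), against 22.8% of intergenic candidates and 20.2% of the other main-list peaks. There were 78 on 2L, 67 on 3R, 59 on 2R, 39 on X and 1 on chromosome 4, which had a signal of 111.2. This distribution was not tested.

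Intergenic peaks came in groups in places. With summits at most 10000 bp apart counted as 1 group, 214 members were single, 74 formed 37 pairs, and 60 formed 15 groups of 3 or more. The members lay in 274 intergenic spaces, 48 of which held 2 or more. Members that overlapped each other were counted separately in these groups and spaces. Since 13 members overlapped a stronger peak of the list, some groups held fewer separate regions. Another main-list peak lay within 5000 bp of 46.0% of members, against 43.3% of promoter peaks and 55.2% of intronic peaks, with a median distance of 6539 bp to the nearest.

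1 group of 7 members, among them 3 of the 15 strongest peaks, stood upstream of chinmo on 2L (FBgn0086758, plus strand, start at 1651258), which encodes a BTB zinc finger factor known for setting the birth-order identity of neurons. They lay between 22918 and 1529 bp before its start, in the spaces on both sides of lncRNA:CR45695. From far to near their signals were 71.5, 299.9, 158.7, 288.1, 251.3, 85.1 and 185.0. In replicate 1 the values were 37.1, 136.2, 53.8, 142.3, 131.5, 50.2 and 91.2, and in replicate 2 they were 36.0, 158.4, 95.2, 141.9, 135.2, 31.5 and 93.6. The replicates were thus close at 5 summits, and the widest gap was at the third. 5 of the 7 were in both own lists, and all 7 in the conservative list. Only the member at 1529 bp had its nearest start at chinmo. For the others the nearest start was that of lncRNA:CR44603 or lncRNA:CR45695. Farther out, 2 peaks in exons of lncRNA:CR44603 had 175.2 and 82.4.

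**Figure D4:**
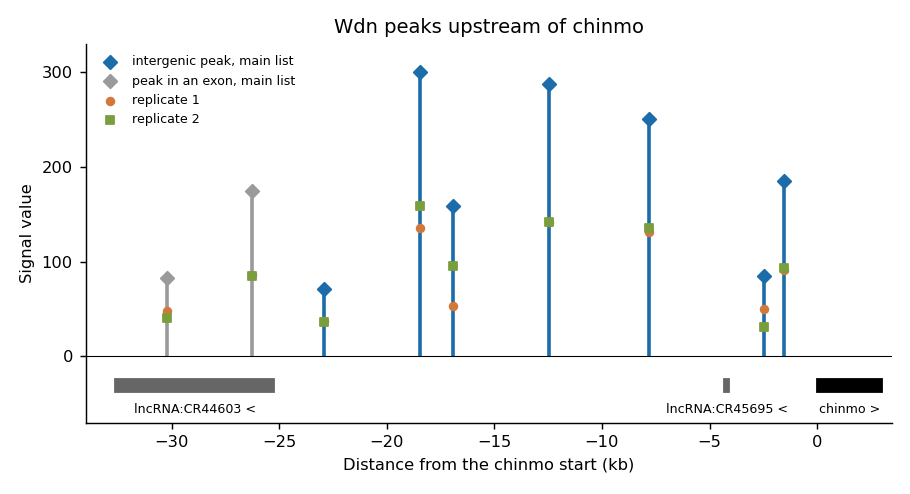
Wdn peaks by distance from the chinmo start (kb) and signal value in the main list (diamonds; blue for intergenic, grey for exonic), with the values of replicate 1 (circles) and replicate 2 (squares) and the genes drawn below. 7 intergenic peaks stand upstream, 4 of them at 185.0 or more in the main list.

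Other groups of 4 or more had lower maxima. On 3L, 7 members between 11414282 and 11431407, at lncRNA:CR44363 and CG7560, had 49.5 to 129.2. Of them 2 were in both own lists, those of 129.2 and 60.69. These had summits at 11418379 and 11418580 and overlapped each other, so they are not independent regions. 5 members near lncRNA:CR45251 on 3L had 50.7 to 190.5. On 2R, 4 members within 1912 bp near lncRNA:CR44761 had 65.45 to 156.4, and all 4 overlapped peaks of both own lists. The members of 141.8 and 65.45 overlapped each other and shared their replicate values (61.2 and 70.52). They are thus not independent regions. 4 members near scyl, an inhibitor of TOR signalling, had 51.4 to 110.6, and 4 near Ids, for a lysosomal sulfatase, and lncRNA:CR45737 had 46.5 to 157.4. In the 9 other groups the strongest member had between 51.8 (CG32645) and 315.3 (tRNA:Ile-TAT-1-2).

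The genes with the nearest start were compared with lists of known function. Of 348 members, 4 (1.15%, against 1.25% of candidates) had their nearest start at 1 of 37 segmentation and homeotic genes. These included slp2, a forkhead factor of segment patterning (135.9), ptc, the Hedgehog receptor (101.4), and wg, the Wnt ligand of the segment boundary (77.2). 2 members (0.575%, against 0.487%) lay nearest to dorsoventral and germ layer genes, at Doc2, a T-box factor of the dorsal ectoderm and mesoderm (92.8), and bin, a factor of the visceral mesoderm (91.7). 1 member lay nearest to a gene of the neuronal list, cpo (131.6), a share of 0.287% against 0.186% of candidates, and 1 to a gene of the muscle list, ap (51.0), a share of 0.287% against 0.265%. Counts this small allow no order between lists or against candidates.

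The share was 0.862% (3 members) for Polycomb and trithorax genes, against 0.0716% of candidates. Besides the 2 members beyond Su(z)2, this was a peak of 144.9 at 775 bp upstream of ph-d, which encodes a Polyhomeotic subunit of the same complex. The share thus rests on 2 distinct genes. The 2 members beyond Su(z)2 lay in 1 intergenic space, 18646 and 20008 bp from its start. Both were absent from the conservative list and from replicate 2's own list. The list was chosen with results of these data known, and the difference was not tested. No member had its nearest start at an insulator protein gene or a cytosolic ribosomal protein gene. For 348 regions this allows up to 1.05% (exact interval), against 0% and 0.283% of candidates. All these counts go by starts, and members did lie close to the ends of ribosomal protein genes. A member of 75.25 lay 125 bp beyond the end of RpL17, and another of 78.42 lay 139 bp beyond that of RpS23. 8 members (2.30%, against 1.23%) lay nearest to tRNA genes and 1 (0.287%, against 0.279%) to a microRNA gene, mir-219 (52.0). The 8 had 6 distinct tRNA genes, since 3 of them formed 1 group that lay nearest to tRNA:Ile-TAT-1-2. 2 (0.575%, against 1.63%) lay nearest to chemosensory receptor genes, Gr89a (123.6) and Gr93a (48.8), and 1 (0.287%, against 0.601%) to a cuticle protein gene, Cpr76Ba (177.5). Long non-coding RNA genes were nearest for 92 members (26.4%, against 27.5% of candidates).

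The DNA at the summits held more A and T than that at candidate summits. Within 50 bp of the summit members averaged 63.0% A and T (SD 10.6 over 348 regions), against 54.9% (SD 8.70) for intergenic candidates, 63.3% for promoter peaks and 65.1% for intronic peaks. The intergenic peaks of replicate 1's own list averaged 64.0% and those of replicate 2's own list 64.0%. The share at the summit exceeded that of the flanks 500 bp away by 3.86 ± 0.734 percentage points (SE over regions), whereas in candidates it was -3.95 ± 0.0671. 110 members (31.6%) had at least 70% A and T, against 5.46% of candidates, and 48 (13.8%) had under 50%, against 29.9%. The 116 members with the highest signal averaged 66.0%, the next 116 averaged 63.3% and the 116 lowest 59.6%.

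**Figure D5:**
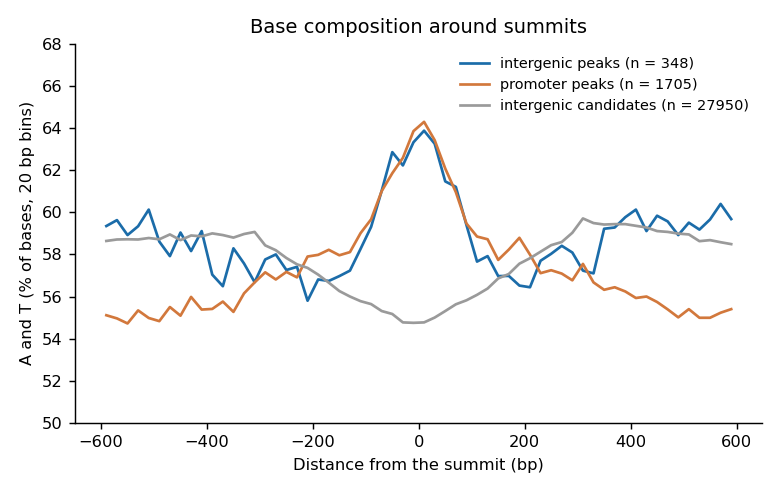
Percentage of A and T in bins of 20 bp against distance from the summit (bp), averaged over intergenic peaks, promoter peaks and intergenic candidates. Both sets of peaks have a maximum at the summit, where candidates have their minimum. The y axis does not start at 0.

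Counts were made of 17 short motifs in the windows reaching 50 bp to each side of a summit, in either orientation. 7 are known from the core promoters or enhancers of flies. These are the TATA box TATAAA, the motif GGTCACACT of the promoter factor M1BP, the DNA replication-related element TATCGATA, the GAGA factor repeat GAGAGAG, the site CAGGTAG of the early embryonic activator Zelda, the homeodomain core TAATTA and the Grainy head site AACNGGTT. The bHLH family is represented by an E-box spelled CACGTG and by another spelled CATATG, and the insulator protein CTCF by GGNGGCGC. The remaining 7 are a run of A (AAAAAAAA), the A-rich words AAAAATGT and TTAAAAAA, then TATATTAA, CACAGTG, the CA repeat CACACACA and finally the GC box GGGGCGG. Matches of different motifs could overlap, and TTAAAAAA shares a run of A with AAAAAAAA. The 17 motifs were chosen with earlier results of these data known, so their p-values are not independent support.

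6 of the 17 were more frequent in members than in intergenic candidates by two-sided Fisher's exact tests with Benjamini-Hochberg adjustment over the 17, and none was less frequent in the main list. TATAAA occurred in 58 members (16.7%), against 8.30% of candidates (odds ratio 2.21, adjusted p = 7.995e-06, Fisher's exact test). AAAAATGT occurred in 20 (5.75%, against 1.86%, odds ratio 3.22, adjusted p = 0.000121), TTAAAAAA in 17 (4.89%, against 1.61%, odds ratio 3.14, adjusted p = 0.000427) and 10 members held TATATTAA (2.87%, with 0.623% of candidates, odds ratio 4.72, adjusted p = 0.000427) by the same exact test. CACAGTG occurred in 12 (3.45%, against 1.30%, odds ratio 2.72, adjusted p = 0.00842, Fisher's exact test). GGTCACACT occurred in 2 members (0.575%, against 0.0429%, odds ratio 13.5, adjusted p = 0.0353, Fisher's exact test), those upstream of slp2 and at lncRNA:CR45251. At least 1 of the 6 was present in 104 members (29.9%), against 12.8% of candidates.

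Some of these differences moved with base composition. When candidates were weighted to the members' A and T content, in classes of 4 percentage points, 17.5% of them held TATAAA, 4.20% TTAAAAAA and 1.93% TATATTAA, and each of these shares lay inside the 95% exact interval of the members' own (12.9 to 21.0%, 2.87 to 7.71% and 1.39 to 5.22%). The weighted candidate shares of AAAAATGT (3.38%), CACAGTG (1.08%) and GGTCACACT (0.0632%) lay below the members' intervals, which began at 3.55%, 1.79% and 0.0697%. In the list of replicate 1 alone, without replicate 2, TATAAA, AAAAATGT and TATATTAA passed, and CACAGTG (odds ratio 1.496, adjusted p = 0.598), TTAAAAAA (odds ratio 1.19, adjusted p = 0.765) and GGTCACACT (odds ratio 16.1, adjusted p = 0.179) did not pass the Fisher's exact test. By the same exact test AAAAATGT was lost in the conservative list (adjusted p = 0.139) and TTAAAAAA at an IDR of 0.001 (adjusted p = 0.0912). In exact tests on few regions, GGTCACACT was lost in both of these (adjusted p = 0.213 and 0.151), with promoters of 250 bp (0.0508), in windows of 100 bp (0.0782) and against the strongest 5000 candidates (0.0577).

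The strongest members with TATAAA were the foxo summit (376.0), that at lncRNA:CR44197 (238.9) and one 1791 bp upstream of out (224.1, with 123.9 in replicate 1 and 100.1 in replicate 2). For AAAAATGT they were those at sp3 (352.0), foxo (209.7) and lncRNA:CR45251 (190.5), and for TTAAAAAA those at alpha-Est9 (196.3), Atet (110.5) and Lrr47 (104.1). TATATTAA stood at lncRNA:CR45355 (232.6), Ids (157.4) and in the CG13321 to Psc space (139.1). CACAGTG stood at Cpr76Ba (177.5), at Sox21a, which encodes a Sox-family factor (106.4), and at CG17570 (81.6). Of the 15 strongest members, 3 held one of the 6 motifs in the window and 12 held none.

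The other 11 motifs were held by 0.575% to 6.03% of members and did not pass the test against candidates (adjusted p from 0.192 to 0.808, Fisher's exact test). 3 of them passed the same exact test under an alternative. The CA repeat CACACACA was less frequent than in candidates without replicate 2 (odds ratio 0, adjusted p = 0.0134), at an IDR of 0.001 (odds ratio 0, adjusted p = 0.0451) and in windows of 100 bp (odds ratio 0.467, adjusted p = 0.0329), by Fisher's exact test. CATATG was more frequent with promoters of 250 bp (odds ratio 1.81, adjusted p = 0.0368, exact test), and GGNGGCGC at an IDR of 0.001 (odds ratio 3.65, adjusted p = 0.0451, exact test) and with protein-coding genes alone (odds ratio 2.31, adjusted p = 0.0495, exact test). Homeodomain sites TAATTA were in 5.46% of members, against 6.24% of candidates, GAGAGAG in 1.44%, against 1.28%, and CAGGTAG in 0.575%, against 0.429%. Between intergenic and promoter peaks none of the 17 motifs passed the exact test, with a lowest adjusted p of 0.225. TATCGATA was in 2 members (0.575%), against 43 promoter peaks (2.52%, odds ratio 0.223), and with windows of 100 bp on each side this motif alone passed, with an odds ratio of 0.0855 (adjusted p = 5.70e-06, Fisher's exact test). With protein-coding genes alone it passed too, with 0.170 (adjusted p = 0.0473, Fisher's exact test). A match gives the letters in a window and does not show a bound factor.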

How the data were processed

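ChIP-seq peak lists of 2 biological replicates were used as deposited by the authors, on dm6 per the file headers. A thresholded list from both replicates (the main list), a conservative one and each replicate's own list were each paired with a ranked list, all made with IDR, which compares peak ranks between data sets. Each peak carries a signal value from the authors, whose scale is not stated. The deposited IDR score is capped at 1000, and the −log10 of the global IDR, which the authors give in the ranked lists, at 5. Aligner, peak caller and read depth are not given in the sources used here, so precision is that of peak counts, with intervals for counting error. 2 sets of unlabelled per-sample values in the ranked lists were not used. The main list lacked 113 ranked peaks that pass its IDR of 0.01.

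Summits were placed on Ensembl release 115 of the same assembly, with 18164 genes on the 6 chromosomes and 5809 transposable element copies. A replicate's value is that of the ranked peak of highest signal among those that overlap the member. Shares carry Clopper-Pearson intervals. They were compared with two-sided Fisher's exact tests and Benjamini-Hochberg adjustment within a family (threshold 0.05). The tests were first run on simulated data with strong planted differences. Those runs did not cover small differences or the dependence between overlapping peaks. Python 3.11.15, NumPy 2.4.6, pandas 2.3.3, SciPy 1.17.1 and Matplotlib 3.10.9 were used. All p-values are over peaks. Regions named were, by rule, the 15 strongest, the 5 farthest from a start, 3 on each side of the limit, groups of 3 or more, the strongest on each chromosome, up to 3 per gene list and 3 per passing motif. Sequences shown were up to 10 of the strongest and 5 others with a passing motif. The chinmo group and the Polycomb gene region are described in more detail, chosen after their values were seen. The members, gene lists, motifs and tests were chosen with earlier results of these data known. Alternatives covered the IDR, lists, annotation, promoter distance, overlap, windows and candidates. A RefSeq annotation and counting overlapping peaks once were added after seeing the data.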

Additional observations from a re-analysis of the deposited data

How the results depend on the processing

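The number of intergenic peaks was 149 at an IDR of at most 0.001 and 165 to 190 without 1 replicate, against 348. Their share of the list was 8.81% at that IDR, 9.74% in the conservative list, 8.28% with promoters of 1000 bp, 13.8% with promoters of 250 bp, 13.4% with protein-coding genes alone, 10.5% with transposable elements counted as genes and 9.25 to 9.52% without 1 replicate. All 348 stayed intergenic under the RefSeq annotation. The mean A and T share was 65.2% at the stricter IDR, 63.5% in the conservative list, 62.5% with passing ranked peaks added, 63.2% and 63.9% with promoters of 1000 and 250 bp, 62.7% with coding genes, 61.8% in windows of 100 bp on each side, and 63.97 to 64.01% without 1 replicate.

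Among the strongest peaks, the odds ratio against intronic peaks turned to 1.09 at the stricter IDR, 1.06 in the conservative list, 1.13 and 1.12 with promoters of 1000 and 250 bp and 1.03 with coding genes, never past the threshold by Fisher's exact test. For both own lists against intronic peaks it was 0.755 with passing peaks added, which passed. At the stricter IDR the odds ratios against promoter peaks were 0.640, 0.700 and 0.647 and the conservative one against intronic peaks 0.278, none past it. Leaving out 1 replicate gave conservative odds ratios of 0.540 and 0.705 against intronic peaks, neither past the threshold. Against promoter peaks it gave 0.627 and 0.629, of which only 0.629 was past the threshold. The cause was not tested.

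For tandem genes the odds ratio turned to 1.04 with promoters of 250 bp and lay at 0.880 to 1.115 without 1 replicate, and for converging genes to 1.04 with promoters of 1000 bp and 1.08 with coding genes. Diverging genes passed with 1.35 (promoters of 250 bp) and 1.27 (coding genes), and converging genes with 0.691 (250 bp). Transposable element copies passed with 0.130 (1000 bp), 0.335 (250 bp), 0.263 (coding genes) and lay at 0 to 0.517 without 1 replicate, past it at 0. They did not pass with 0.163 (conservative list), 0.247 (stricter IDR), 0.612 (passing ranked peaks added) or 0.556 (strongest 5000 candidates). TATAAA turned to 0.945 against candidates of like A and T content, which carries no test. Against promoter peaks 1 motif passed in windows of 100 bp and 1 with coding genes, both TATCGATA. No paired analysis was possible because there was 1 group. Since no control was analysed and no read depths were given, weak peaks cannot be set against background here.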
